A study of Mus musculus with 8 samples.

Results

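The genes described here code for secreted chemokines and interleukins, together with Tnf, Lif, Csf2, Csf3 and the adhesion molecules Vcam1 and Icam1. They were chosen by name: every probe set whose single annotated symbol was that of a CC, CXC or CX3C chemokine or of an interleukin, or was 1 of those 6 symbols, with receptors left out. This gave 94 of 45101 probe sets, standing for 66 of the 18194 genes with a probe set of their own. RNA from cultured mouse cells had been hybridized to 8 Affymetrix arrays, 1 for each sample. NIH3T3 cells are embryonic fibroblasts and B16F10 cells are melanoma cells. Both lines had been infected overnight with a virus to express PGC7 (Stella, the product of Dppa3), a factor of eggs and germ cells known to guard DNA methylation after fertilization, and were grown in medium with fetal bovine serum. The groups were NIH3T3 PGC7 (3 arrays: an uncloned population, clone 1 and clone 2), NIH3T3 control (1 array), B16F10 PGC7 (3 arrays: clones 1, 2 and 3) and B16F10 control (1 array). A genotype field that named PGC8 for the 6 PGC7 samples, and called each of them uncloned, went against the titles, which set the groups. Nothing in the sources used here says whether control cells met a virus without PGC7. With 1 control per line and clones on the other side, effects of PGC7, of cloning and of the culture cannot be told apart. All p-values reflect the spread among these few samples, which may be technical in part.

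Chemokines are small secreted proteins that bind G protein-coupled receptors and draw leukocytes along a gradient. CC chemokines act mostly on monocytes, eosinophils and T cells, and CXC chemokines on neutrophils or activated T cells. Interleukins signal through receptors on leukocytes and stromal cells. Members of the interleukin 1 family use receptors coupled to MyD88 and the transcription factor NF-kB, and those of the interleukin 6 family use the shared chain gp130. Vcam1 and Icam1 sit on the cell surface and are bound by leukocyte integrins. Fibroblasts are a known source of Ccl2, Il6, Il11 and Lif.

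Values are MAS5 signals in arbitrary units after every array had been brought to 1 common trimmed mean. Changes are PGC7 minus control on the log2(signal + 9) scale, which understates changes of low signals, and are given with their standard error. A probe set was tested with limma if its mean log2 value reached the median of all values (signal 49.3) in at least 1 line, and called at an adjusted p under 0.05 over the 25236 tested probe sets. Of the 94 probe sets 33 passed this filter, for 26 of the 66 genes. The 8 fibroblast markers summed to 79254 to 118044 on the NIH3T3 arrays and 554 to 855 on the B16F10 arrays, and the 7 melanocyte markers to 624 to 768 and 104710 to 135098, as the line labels say. Within NIH3T3 the fibroblast sum was 79254 to 87947 in the PGC7 cultures, against 118044 in the control. Of 16 fibroblast probe sets 5 were called lower in NIH3T3 (31.2%) and 0 higher, where 6.32% of all tested were called lower. They read Col1a1, Col1a2 and Lum. Dppa3 (1424295_at) had 101, 29.7 and 55.4 in uncloned, clone 1 and clone 2 NIH3T3 PGC7 cells, against 69.8 in their control, and 70.0, 117 and 71.0 in B16F10 clones 1, 2 and 3, against 23.5 in theirs. The NIH3T3 control lay within the range of the PGC7 arrays. The change was called in neither line by limma (-0.28 ± 0.58, adjusted p = 0.802 in NIH3T3 and 1.51 ± 0.58, adjusted p = 0.27 in B16F10). It is unknown whether these probes read the sequence carried by the virus, so this gene does not check the labels of either line. Scaling on the poly-A spikes would move the median change over everything tested to 0.25 in NIH3T3 and -0.54 in B16F10, against -0.07 and 0.02 here, so directions are relative to the typical probe set.

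The ligands that changed in NIH3T3 PGC7 cells went both ways. Il33, Ccl8, Il34, Lif and Ccl2 rose, while Vcam1, Cxcl5, Il15, Ccl9 and Il17d fell. In B16F10 PGC7 clones Il18 was the 1 member called, and it rose. In NIH3T3, 13 of the 33 tested probe sets were called, 5 higher and 8 lower, for 10 genes, where 12.8% of all tested probe sets were called, 6.47% higher and 6.32% lower. In B16F10 it was 1 of 33, higher, where 1.19% of all tested were called, 0.923% higher and 0.265% lower, and it was 0 without B16F10 clone 1, 2 or 3 and 2 without the uncloned NIH3T3 population. The median change of the 33 was -0.30 in NIH3T3 and -0.01 in B16F10, and the median size of change 0.95 and 0.50, against 0.38 and 0.27 over all tested probe sets. Since a probe set could pass the filter through the arrays on which it was high, the counts were also taken with no filter. Then 14 of all 94 (14.9%) were called in NIH3T3, against 5.94% of 45037 probe sets, and 1 of 94 (1.06%) in B16F10, against 0.393%.

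**Figure D1:**
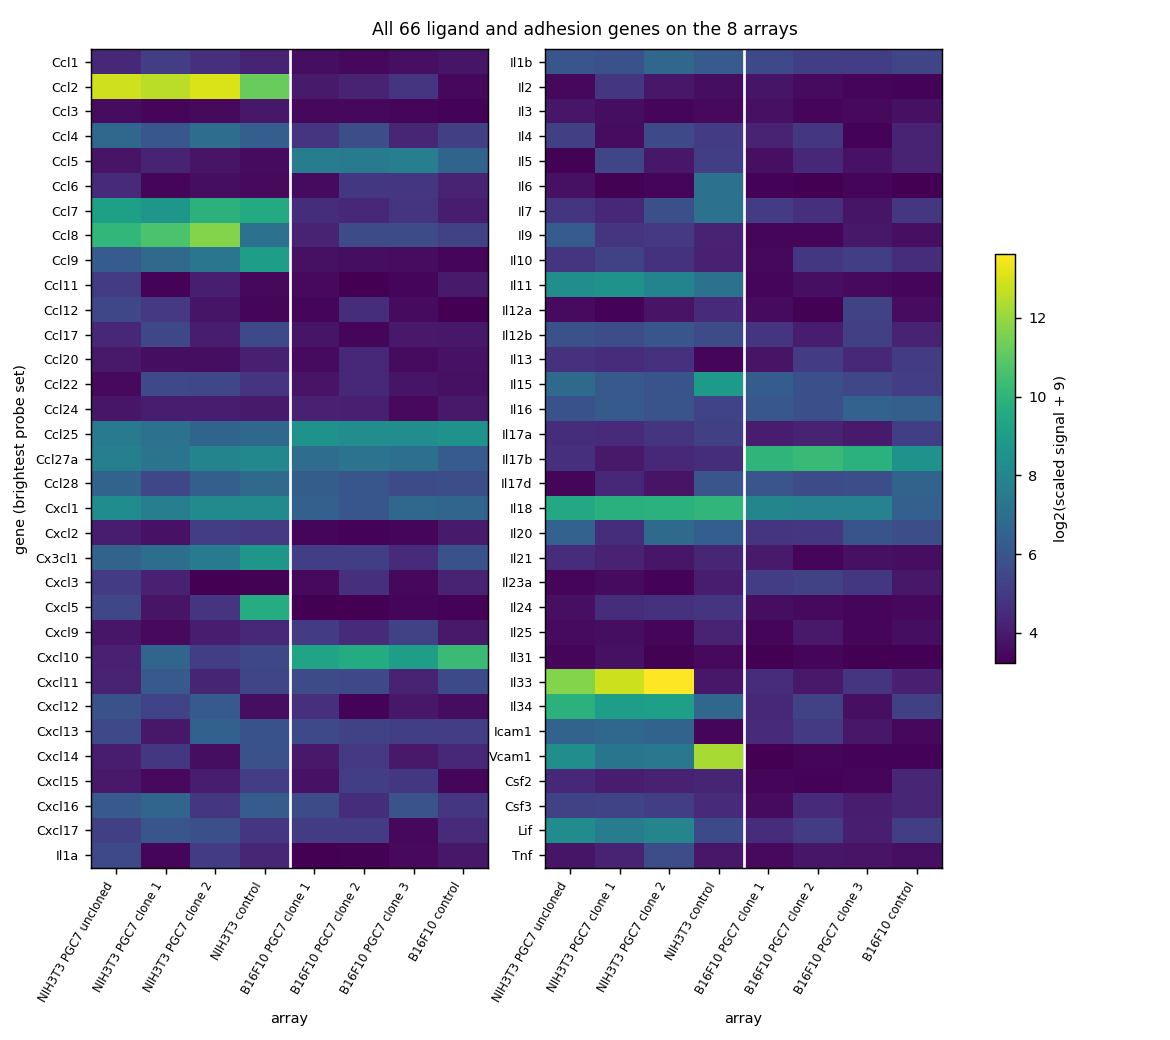
Signal of all 66 genes on the 8 arrays, as log2(scaled signal + 9) in colour, with the brightest probe set of each gene in rows and the arrays in columns (NIH3T3 left of the white line, B16F10 right of it, PGC7 arrays before their control). Il33 is bright on the 3 NIH3T3 PGC7 arrays alone, Vcam1 and Cxcl5 are brighter on the NIH3T3 control than on the NIH3T3 PGC7 arrays, and Il17b and Cxcl10 are brighter in B16F10.

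Il33 is an alarmin of the interleukin 1 family, kept in the nucleus of stromal and epithelial cells and released on damage. Its probe set 1416200_at had a signal of 3347 in the uncloned NIH3T3 PGC7 population, 7330.5 in clone 1 and 12574.5 in clone 2, against 6.13 in the NIH3T3 control. All 3 PGC7 cultures were far above the control, and the uncloned population had the lowest value of the 3. The B16F10 clones 1, 2 and 3 had 14.7, 6.32 and 19.7, against 8.64 in the B16F10 control, so every B16F10 array stayed under the median signal. The change was 8.81 ± 0.65 in NIH3T3 (limma adjusted p = 0.000199) and 0.31 ± 0.65 in B16F10 (adjusted p = 0.874), and the changes of the lines differed by 8.50 ± 0.91 (adjusted p = 0.0024). The gene lies on chromosome 19, and the RefSeq windows give it a pair of start sites. The 250 bases before each are shown because this gene changed most among the members in NIH3T3. They are from GRCm38.p6, plus strand, with each TATAAA in capitals, and lie at chr19:29924863-29925112 and chr19:29945540-29945789.
Il33 upstream start: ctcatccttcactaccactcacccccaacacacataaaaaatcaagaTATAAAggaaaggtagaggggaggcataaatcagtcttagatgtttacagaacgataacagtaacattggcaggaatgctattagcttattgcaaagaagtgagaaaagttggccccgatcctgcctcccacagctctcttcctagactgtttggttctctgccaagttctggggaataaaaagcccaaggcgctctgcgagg
Il33 downstream start: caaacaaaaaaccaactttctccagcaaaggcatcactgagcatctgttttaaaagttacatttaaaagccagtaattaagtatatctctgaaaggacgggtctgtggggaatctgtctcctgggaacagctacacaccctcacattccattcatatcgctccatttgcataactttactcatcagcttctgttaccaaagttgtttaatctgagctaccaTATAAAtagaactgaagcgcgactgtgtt
The downstream window holds TATAAA beginning 29 bases before the start, and the upstream window holds it 203 bases before. Each window holds 4 CG dinucleotides, against a median of 6 over 32851 windows of all genes. TATAAA, on either strand, was found in 12.4% of all windows. A single probe set does not show which of the start sites was in use.

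Il18, of the same family, is made as a precursor and induces interferon gamma in lymphocytes. It had 243, 222 and 223 in B16F10 clones 1, 2 and 3, against 75.7 in the B16F10 control, so that the clones stood close together above it. In NIH3T3 it had 722 in the uncloned population, 891 in clone 1 and 933 in clone 2, against 1064 in the control. The change was 1.49 ± 0.21 in B16F10 (adjusted p = 0.0187) and -0.33 ± 0.21 in NIH3T3 (adjusted p = 0.349), and the difference between the lines was called (-1.82 ± 0.30, adjusted p = 0.0116). The B16F10 call was lost without B16F10 clone 1, 2 or 3 (adjusted p = 0.0535 to 0.0875) and with a constant variance prior (adjusted p = 0.0593). It was also lost under the spike scaling (adjusted p = 0.065), which ended the call of the difference too (adjusted p = 0.149). Of the founding members of the family, Il1b was tested and called in neither line, and Il1a did not pass the filter, with signals of 0.537 to 36.9.

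Il34 and Lif rose with Il33 in NIH3T3. Il34 is an alternative ligand of the macrophage receptor Csf1r. Its probe set 1431920_a_at had 948, 505 and 533 in the uncloned population, clone 1 and clone 2, against 93.5 in the NIH3T3 control (2.65 ± 0.61, adjusted p = 0.0254). All 3 were above the control, the uncloned population highest. In B16F10 it had 12.9, 29.8 and 3.67 in clones 1 to 3, against 27.4 in the control, below the median signal throughout (-0.72 ± 0.61, adjusted p = 0.64). The difference between the lines missed the threshold (3.38 ± 0.86, adjusted p = 0.0543). The NIH3T3 call was lost without B16F10 clone 1 (adjusted p = 0.0501), since the fit pools the spread of both lines. It was also lost with a pseudocount of 1 (adjusted p = 0.0958) and with a constant variance prior (adjusted p = 0.0581).

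Lif, the leukaemia inhibitory factor of the interleukin 6 family, was read by a pair of probe sets. With 1421207_at it had 297, 182 and 237 in the uncloned population, clone 1 and clone 2, against 37.8 in the NIH3T3 control (2.38 ± 0.48, adjusted p = 0.0149). The B16F10 clones had 14.5, 23.8 and 8.23, against 26.3 in their control (-0.58 ± 0.48, adjusted p = 0.631). The groups did not overlap in NIH3T3, and the lines differed (2.95 ± 0.67, adjusted p = 0.0373), which held in 6 of 14 alternatives. That call was lost without NIH3T3 clone 1 or 2 or B16F10 clone 1 or 3 (adjusted p = 0.0535 to 0.0846). It was also lost with the scaling as deposited, a pseudocount of 1, no filter or a constant variance prior (adjusted p = 0.0507 to 0.0904). With 1450160_at the NIH3T3 values were 136, 40.8 and 58.3, against 38.4 in the control, and the change was not called (0.73 ± 0.65, adjusted p = 0.508). Both probe sets put the uncloned population highest, and they disagreed on the size of the change. The 250 bases before the Lif start (chr11:4257318-4257567, GRCm38.p6, plus strand) are shown because Lif rose together with Il33. Capitals mark TGANTCA, the sequence of AP-1 sites.
Lif: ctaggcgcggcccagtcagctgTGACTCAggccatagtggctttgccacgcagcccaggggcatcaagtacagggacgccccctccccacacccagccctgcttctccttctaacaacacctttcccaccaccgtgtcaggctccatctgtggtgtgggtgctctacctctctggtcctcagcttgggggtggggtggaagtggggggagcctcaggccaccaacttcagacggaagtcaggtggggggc
The match begins 228 bases before the start, and this motif, on either strand, was in 6.75% of all windows. TATAAA was not found in this window.

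Il11, a relative of Il6 with a role in bone and fibrosis, had 324, 367 and 234 in the uncloned population, clone 1 and clone 2, against 133 in the control. All were above the control, but the change was not called (1.13 ± 0.43, adjusted p = 0.119). Il15, a growth factor of natural killer and memory T cells, fell in NIH3T3. It had 103, 61.5 and 51.3 in these cultures, against 470.3 in the NIH3T3 control (-2.62 ± 0.48, adjusted p = 0.0104). In B16F10 it had 68.8, 44.9 and 34.2 in clones 1 to 3, against 26.1 (0.69 ± 0.48, adjusted p = 0.565). The lines differed (-3.31 ± 0.68, adjusted p = 0.0269), a call lost without NIH3T3 clone 1 or B16F10 clone 1 or 2 (adjusted p = 0.0549 to 0.0625) and with no filter (adjusted p = 0.0606).

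Il17d, a member of the interleukin 17 family, fell in NIH3T3 with 1435714_x_at. It had 1.82, 12.4 and 4.64 in the PGC7 cultures, against 53.1 in the control (-2.08 ± 0.52, adjusted p = 0.0341), and 53.0, 40.7 and 44.7 in B16F10 clones 1 to 3, against 84.0 (-0.76 ± 0.52, adjusted p = 0.551). The NIH3T3 control was just above the median signal and its PGC7 cultures far below it. The call held in 4 of 12 alternatives and was lost without NIH3T3 clone 2 or B16F10 clone 1, 2 or 3 (adjusted p = 0.059 to 0.0671). The other probe set, 1456612_at, was not tested and had 2.08 to 4.10 in NIH3T3 PGC7, against 3.16 in the control.

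Il17b, a ligand of Il17rb, was high in B16F10. Its signal was 1030.3, 1225 and 932 in B16F10 clones 1, 2 and 3, against 373 in the B16F10 control, at least 2-fold higher in all 3 clones. The change of 1.48 ± 0.35 was not called (adjusted p = 0.0969), though it was in 3 of 15 alternatives. In NIH3T3 it had 16.1, 6.57 and 12.6 in the PGC7 cultures, against 14.97 in the control, all under the median signal. Il16, a chemoattractant of CD4 cells, averaged 54.4 ± 7.64 in NIH3T3 PGC7 (1443796_at, SD, n = 3), against 31.5 in the control (limma adjusted p = 0.365), and 61.9 ± 18.9 in B16F10 PGC7, against 73.7 (adjusted p = 0.835). Its other 3 probe sets did not pass the filter. Il20, of the interleukin 10 family, was tested and called in neither line.

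Il6, a main inflammatory cytokine of fibroblasts, did not pass the filter, because the NIH3T3 control was the 1 array with signal. It had 3.85, 0.942 and 1.25 in the uncloned population, clone 1 and clone 2, against 131 in the NIH3T3 control, and 0.628 to 1.80 in B16F10 clones, against 0.414 in theirs. Fitted with no filter it was lower in NIH3T3 (-3.68 ± 0.34, adjusted p = 0.000827 over 45037 probe sets), and the lines differed (-3.79 ± 0.48, adjusted p = 0.00756). Icam1 was also left out by the filter, and went the other way. It had 84.7, 97.0 and 85.3 in the NIH3T3 PGC7 cultures, against 1.26 in the control (3.25 ± 0.58, adjusted p = 0.0145 with no filter), and 13.3, 23.4 and 5.98 in B16F10 clones 1 to 3, against 1.99 (1.01 ± 0.58, adjusted p = 0.654). Their windows are shown because the genes moved in opposite directions while both windows hold GGANNTTCC, a form of the NF-kB motif, which is in capitals, as is TGANTCA (Icam1 chr9:21015690-21015939, Il6 chr5:30012864-30013113, GRCm38.p6, plus strand).
Icam1: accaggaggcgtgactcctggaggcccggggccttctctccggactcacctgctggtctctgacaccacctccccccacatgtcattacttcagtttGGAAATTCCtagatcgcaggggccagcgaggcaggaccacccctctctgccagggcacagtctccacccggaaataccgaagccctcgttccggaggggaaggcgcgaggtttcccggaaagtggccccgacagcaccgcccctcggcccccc
Il6: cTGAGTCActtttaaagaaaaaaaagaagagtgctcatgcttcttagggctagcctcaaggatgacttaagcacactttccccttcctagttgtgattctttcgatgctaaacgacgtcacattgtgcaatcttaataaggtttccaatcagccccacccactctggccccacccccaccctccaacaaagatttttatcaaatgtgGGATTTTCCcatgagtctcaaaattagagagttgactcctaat
The NF-kB-type match begins 153 bases before the start in Icam1 and 43 bases before it in Il6, and TGANTCA begins 249 bases before it in Il6. GGANNTTCC, on either strand, was in 13 of 55 windows of the 46 members with an entry (23.6%), against 3.59% of all windows. Of the genes called in NIH3T3, Ccl2, Il34, Vcam1, Cxcl5 and Il15 had no window. The windows of Il33, Ccl8, Lif, Ccl9 and Il17d did not hold this match, so the share does not describe the called genes. A looser form, GGG and CC with 5 bases of any kind between them, was searched first and was in 52.7% of member windows, against 45.8% of all. TGANTCA was in 18.2% of member windows, against 6.75% of all, and TATAAA in 32.7%, against 12.4%. The median number of CG dinucleotides was 3 in the members' windows, against 6 in all. A match describes the letters of the window and no site in use.

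**Figure D2:**
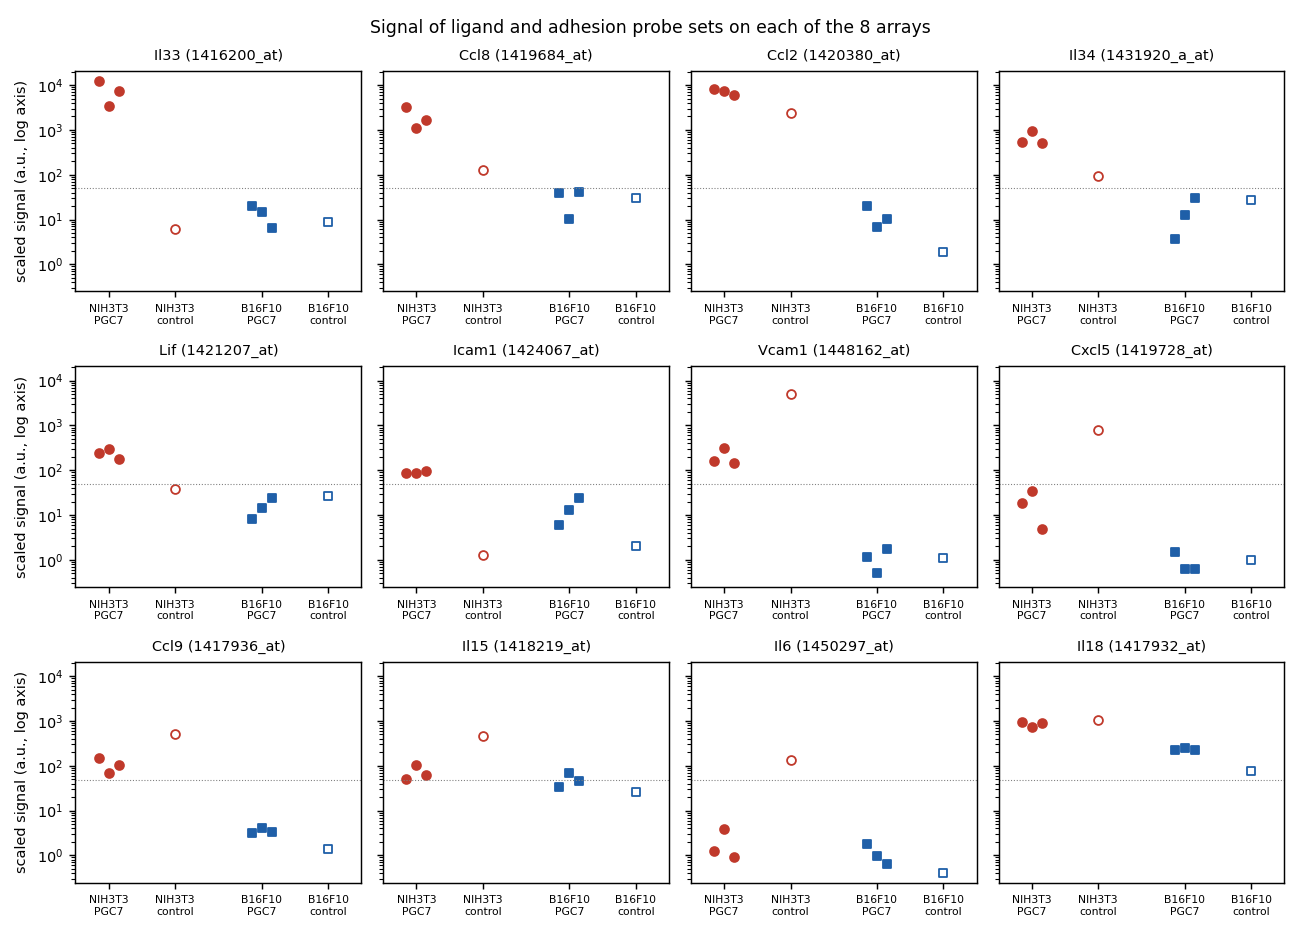
Scaled signal (log axis, arbitrary units) of the brightest probe set of 12 genes on each array, with NIH3T3 as red circles and B16F10 as blue squares, filled for PGC7 and open for the control; the dotted line is the median signal of 49.3. Il33, Ccl8, Ccl2, Il34, Lif and Icam1 have all 3 NIH3T3 PGC7 arrays above the control, Vcam1, Cxcl5, Ccl9, Il15 and Il6 have them below it, and Il18 has the 3 B16F10 PGC7 arrays above their control.

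Among the CC chemokines, Ccl8 and Ccl2 rose in NIH3T3 and Ccl9 fell. Ccl8, known as MCP-2, attracts monocytes and T cells. It had 1108, 1624 and 3273 in the uncloned population, clone 1 and clone 2, against 129 in the NIH3T3 control (1419684_at, 3.72 ± 0.67, adjusted p = 0.00934). In B16F10 it had 10.2, 40.8 and 39.9 in clones 1 to 3, against 29.6, under the median signal on every array (-0.10 ± 0.67, adjusted p = 0.969). The difference between the lines was called by a narrow margin (3.82 ± 0.94, adjusted p = 0.0487). It held in 5 of 14 alternatives and was lost without NIH3T3 clone 1 or 2 or B16F10 clone 1, 2 or 3 (adjusted p = 0.0659 to 0.0858).

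Ccl2, the main monocyte attractant of fibroblasts, had 7454.5, 5943 and 8408 in the uncloned population, clone 1 and clone 2, against 2339.9 in the NIH3T3 control (1420380_at, 1.62 ± 0.35, adjusted p = 0.0205). All 3 cultures were above a control that was itself bright. The call was lost without NIH3T3 clone 2 (adjusted p = 0.0595), with a pseudocount of 1 (adjusted p = 0.0796) and with a constant variance prior (adjusted p = 0.051). In B16F10 Ccl2 had 6.64, 10.1 and 19.97 in clones 1 to 3, against 1.84 (0.92 ± 0.35, adjusted p = 0.264).

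Ccl2, Ccl7, Ccl11, Ccl12, Ccl8 and Ccl1 are next to each other in this order on chromosome 11 in RefSeq, with 0 other protein-coding genes between neighbours. Their values did not run in parallel. Between Ccl2 and Ccl8, Ccl7, another monocyte attractant, had 558, 419.9 and 956 in the NIH3T3 PGC7 cultures, against 749 in the control, which lay within their range (-0.30 ± 0.45, adjusted p = 0.717). Ccl11, the eosinophil attractant eotaxin, had 1.06 to 23.9 in NIH3T3 PGC7, against 2.12 in the control. Ccl12, a further monocyte attractant of the mouse, had 5.15 to 34.0, against 1.40, and Ccl1, a ligand of Ccr8, had 12.7 to 26.2, against 9.54. These 3 genes were under the median signal on all 8 arrays and untested.

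Ccl9, a mouse chemokine that attracts dendritic cells and osteoclast precursors, belongs to another run of neighbours on the same chromosome, Ccl5, Ccl9, Ccl6, Ccl3 and Ccl4. With 1417936_at it had 67.2, 104 and 150.1 in the uncloned population, clone 1 and clone 2, against 517 in the NIH3T3 control (-2.24 ± 0.50, adjusted p = 0.0225). With 1448898_at it had 57.2, 75.6 and 83.0, against 302 (-1.96 ± 0.48, adjusted p = 0.0331). Both probe sets gave the same order of the 4 arrays. The first call was lost without NIH3T3 clone 1 (adjusted p = 0.0503) and the second without NIH3T3 clone 1 or 2 or B16F10 clone 1 (adjusted p = 0.0532 to 0.0623), and both with no filter (adjusted p = 0.0565 and 0.0801). In B16F10 both were under the median signal on every array, and the difference between the lines was called for the second (-2.81 ± 0.68, adjusted p = 0.0456). That call held in 6 of 13 alternatives and was lost without NIH3T3 clone 1 or 2 or B16F10 clone 1 or 3 (adjusted p = 0.066 to 0.105). Ccl5, a chemokine that attracts T cells and monocytes, was a B16F10 gene. It had 183, 169.7 and 197 in B16F10 clones 1 to 3, against 86.5 in the B16F10 control (1.01 ± 0.42, adjusted p = 0.303), and 4.85, 9.504 and 4.90 in NIH3T3 PGC7, against 2.57. Fitted on the 4 B16F10 arrays alone, its change was called higher (adjusted p = 0.0261). That fit was the 1 of 14 alternatives to call Ccl5 in B16F10, and it called a far larger share of all probe sets than the 1.19% called with both lines. Ccl4, which attracts similar cells, was called in neither line, and Ccl3 and Ccl6 did not pass the filter. Windows of a gene that rose and one that fell are shown, with TATAAA on either strand and TGANTCA in capitals (Ccl8 chr11:82114935-82115184, plus strand; Ccl9 chr11:83578637-83578886, minus strand; GRCm38.p6).
Ccl8: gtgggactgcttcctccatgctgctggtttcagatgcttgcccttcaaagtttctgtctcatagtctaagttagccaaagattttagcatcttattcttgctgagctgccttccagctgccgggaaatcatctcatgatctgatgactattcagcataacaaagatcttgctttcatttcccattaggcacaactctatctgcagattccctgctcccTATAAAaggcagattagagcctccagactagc
Ccl9: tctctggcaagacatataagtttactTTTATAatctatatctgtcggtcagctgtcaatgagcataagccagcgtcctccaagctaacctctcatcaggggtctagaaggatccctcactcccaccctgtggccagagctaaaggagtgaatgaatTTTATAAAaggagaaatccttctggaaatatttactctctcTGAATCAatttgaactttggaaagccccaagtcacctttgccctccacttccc
Ccl8 holds TATAAA beginning 32 bases before the start, and 1 CG dinucleotide. Ccl9 holds 3 matches of TATAAA on either strand, of which a pair overlap, and TGANTCA beginning 53 bases before the start.

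**Figure D3:**
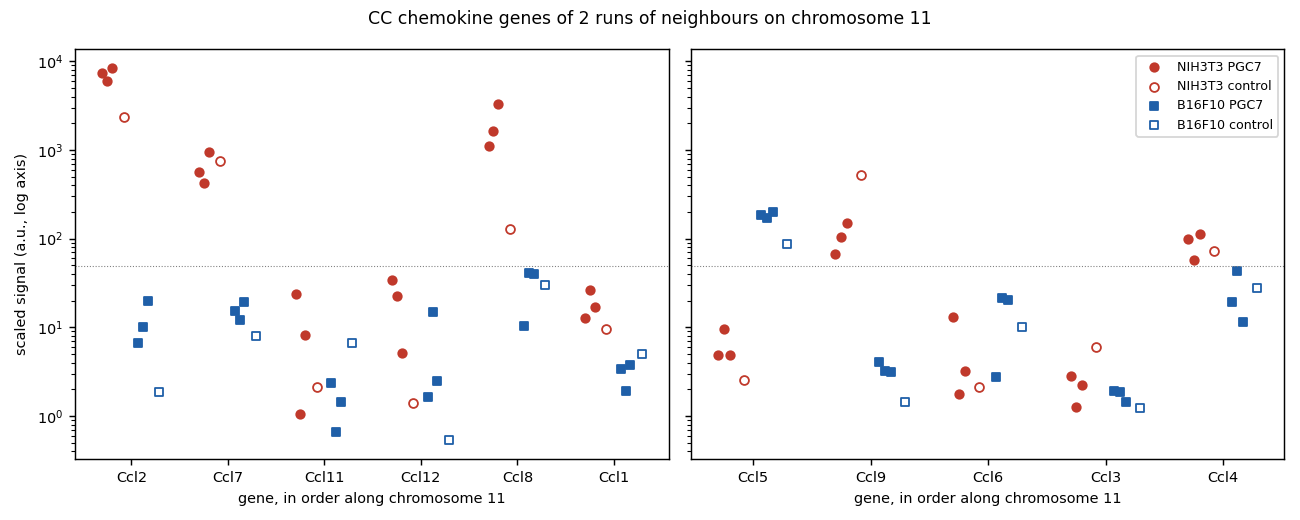
Scaled signal (log axis, arbitrary units) of the CC chemokine genes of each run in chromosomal order, brightest probe set per gene, for NIH3T3 (red circles) and B16F10 (blue squares), filled for PGC7 and open for the control; the dotted line is the median signal of 49.3. Ccl2 and Ccl8 have the 3 NIH3T3 PGC7 arrays above the control, Ccl7 has the control within the range of the PGC7 arrays, and Ccl9 has them below the control.

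The other CC chemokines with high signals were called in neither line. Ccl25, the thymus and gut chemokine, averaged 132 ± 46.4 in NIH3T3 PGC7, against 94.5, and 328 ± 24.2 in B16F10 PGC7, against 366 (1418777_at, SD, n = 3, limma adjusted p = 0.527 and 0.888). Ccl27a, a skin chemokine, averaged 191 ± 45.6, against 260.3, and 125 ± 12.1, against 66.9 (limma adjusted p = 0.411 and 0.292). Near-identical copies of this gene exist, and its probe set is of a kind (x_at) that can read related sequences, so the values may be shared. Ccl28, a mucosal chemokine, averaged 64.2 ± 26.2, against 105, and 55.7 ± 14.5, against 44.6 (1455577_at, limma adjusted p = 0.403 and 0.873).

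Of the CXC chemokines, Cxcl5 was the 1 called in NIH3T3, and 0 were called in B16F10 by limma. Cxcl5 attracts neutrophils through Cxcr2. It had 34.9, 4.79 and 18.6 in the uncloned population, clone 1 and clone 2, against 806 in the NIH3T3 control (1419728_at, -5.00 ± 0.68, adjusted p = 0.00265). The control alone was above the median signal. In B16F10 it was 0.619, 0.614 and 1.52 in clones 1 to 3 and 0.986 in the control, so the difference between the lines (-4.98 ± 0.96, adjusted p = 0.0203) rests on a gene without signal in B16F10. It was lost without B16F10 clone 1 or 3 (adjusted p = 0.0517 to 0.0519). Its near neighbours on chromosome 5 in the same neutrophil-attracting family, Cxcl3, Cxcl15 and Cxcl2, were under the median signal on all 8 arrays. Cxcl1, of this family too, was read by 3 probe sets that disagreed. With 1419209_at it had 28.9, 26.4 and 37.5 in the NIH3T3 PGC7 cultures, against 230.0 in the control (-2.59 ± 0.77, adjusted p = 0.0611). With 1457644_s_at it had 101, 70.7 and 87.7, against 174 (-0.95 ± 0.53, adjusted p = 0.278), and with 1441855_x_at 300.1, 197 and 278, against 287 (-0.17 ± 0.37, adjusted p = 0.809).

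Cxcl10, an interferon-induced attractant of activated T cells, was a B16F10 gene. It had 619, 770.5 and 513 in clones 1 to 3, against 1270.2 in the B16F10 control, lower in all 3 clones but not called (-1.01 ± 0.74, adjusted p = 0.585). The fit pools the spread of both lines, and this gene ran from 9.35 to 89.9 among the NIH3T3 PGC7 cultures, with 36.3 in their control. Fitted on the 4 B16F10 arrays alone, Cxcl10 was called lower in the clones (adjusted p = 0.0174). That fit was the 1 of 15 alternatives to call Cxcl10 in B16F10. It also called a far larger share of all probe sets than the 1.19% called with both lines. Cxcl16, a membrane-bound ligand of Cxcr6, was called in neither line. Cx3cl1, or fractalkine, also membrane-bound, was lower by at least 2-fold in all 3 NIH3T3 PGC7 cultures. With 1415803_at it had 84.3, 118 and 179 in the uncloned population, clone 1 and clone 2, against 412 in the control, and missed the threshold (-1.69 ± 0.49, adjusted p = 0.0574). With no filter, 1415804_at (19.96, 9.11 and 20.8, against 181) and 1441884_x_at were called lower in NIH3T3 by limma (adjusted p = 0.0398 and 0.0198), and 1421610_at was not (adjusted p = 0.111). The signals of 1441884_x_at were 2.46, 1.28 and 1.30, against 20.2 in the control, all under the median signal.

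Vcam1, the adhesion molecule bound by integrin alpha 4 beta 1, fell in NIH3T3 with all 3 of its probe sets. With 1448162_at it had 318, 145 and 159 in the uncloned population, clone 1 and clone 2, against 4917 in the NIH3T3 control (-4.60 ± 0.48, adjusted p = 0.000843). With 1415989_at it had 317, 207 and 203, against 2967 (-3.59 ± 0.59, adjusted p = 0.00659), and with 1451314_a_at 207, 14.8 and 142, against 1749 (-4.26 ± 1.06, adjusted p = 0.0339). Each probe set put the uncloned population highest among the PGC7 cultures and far under the control. The calls of the first and second probe sets held in all 15 alternatives each. That of 1451314_a_at held in 7 of 14 alternatives and was lost without B16F10 clone 1, 2 or 3 (adjusted p = 0.0584 to 0.0619). In B16F10 1448162_at had 0.503 to 1.74 in the clones, against 1.08 in the control, 1415989_at 4.68 to 30.2, against 19.9, and 1451314_a_at 1.58 to 10.02, against 4.97. The difference between the lines was called for 1448162_at (-4.60 ± 0.68, adjusted p = 0.00793) and 1415989_at (-3.50 ± 0.84, adjusted p = 0.0437), which held for 1415989_at in 7 of 14 alternatives and was lost without NIH3T3 clone 1 or 2 or B16F10 clone 2 or 3 (adjusted p = 0.0807 to 0.0934).

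The classical myeloid cytokines had little signal. Tnf had 5.001, 10.3 and 42.4 in the uncloned population, clone 1 and clone 2, against 5.90 in the NIH3T3 control, and 2.17 to 5.52 in B16F10 clones, against 3.73. Csf2, the granulocyte and macrophage growth factor GM-CSF, had 7.13 to 11.7, against 10.9, in NIH3T3 and 1.19 to 1.43, against 11.3, in B16F10. Csf3, the granulocyte growth factor G-CSF, had 27.1 to 32.2, against 14.0, in NIH3T3 and 2.53 to 14.0, against 11.5, in B16F10. In all, 61 probe sets did not pass the filter, with signals of 0.414 to 181 (median 6.11), and 40 of the 66 genes had no tested probe set. They include the T-cell cytokines Il2, Il3, Il4, Il5, Il9, Il10, Il13, Il17a, Il21 and Il31, the interleukin 12 family genes Il12a, Il12b and Il23a, and Cxcl12, Cxcl13 and Cxcl14. Beside Il6, Icam1 and a pair of Cx3cl1 probe sets, the fit with no filter called 1 of the 61: Il7, a lymphocyte survival factor, with 1422080_at at 2.55, 1.37 and 2.38 in the NIH3T3 PGC7 cultures, against 23.1 in the control (adjusted p = 0.0271). The signals of 1422080_at were under the median on every array, the control included. The other Il7 probe set, 1436861_at, had 19.2, 12.1 and 45.6, against 132 (limma adjusted p = 0.126).

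**Figure D4:**
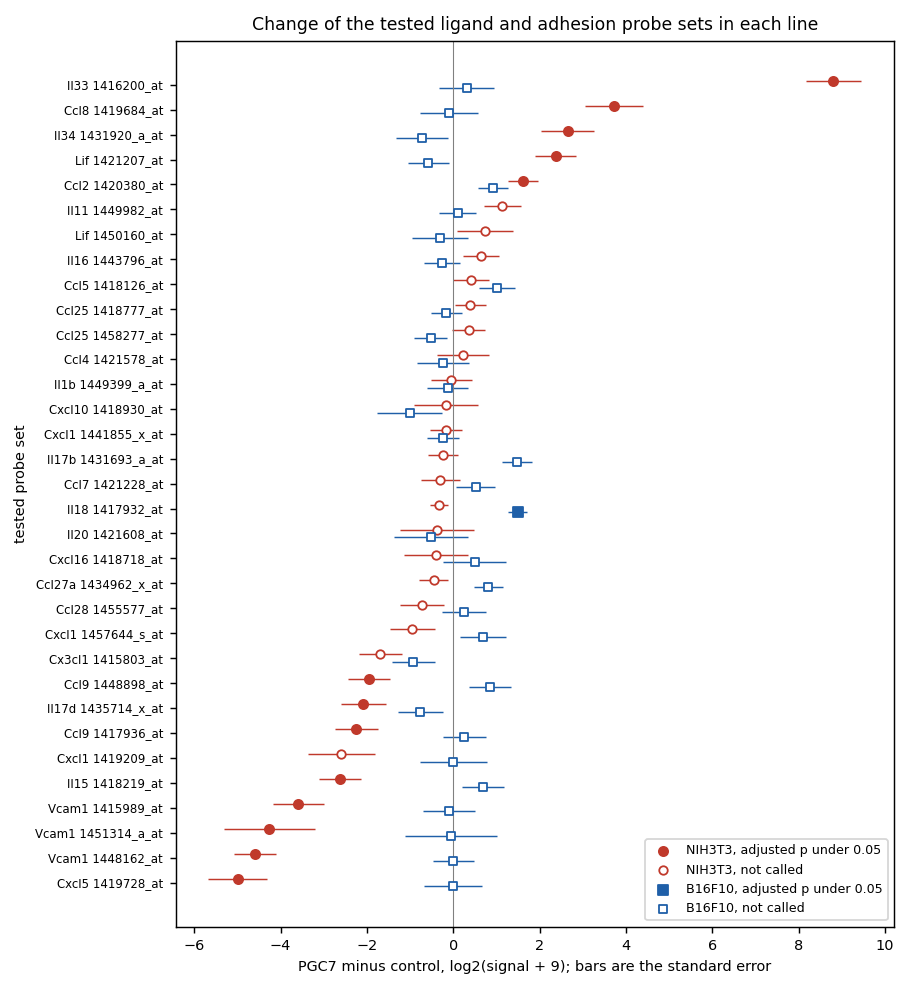
Change (PGC7 minus control, log2(signal + 9), with the standard error) of the 33 tested probe sets in NIH3T3 (red circles) and B16F10 (blue squares), filled where the adjusted p was under 0.05. In NIH3T3 5 probe sets are filled on the right and 8 on the left, and in B16F10 1 is filled, Il18.

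Changes of 2-fold or more, all in 1 direction over the 3 PGC7 arrays, were seen for 15 of the 33 probe sets in NIH3T3, 5 higher (3.85% of all tested) and 10 lower (4.74% of all tested). In B16F10 they were seen for 2, Il17b and Il18, both higher (2.32% of all tested were higher and 0.495% lower), and for 5 without B16F10 clone 2. All 3 arrays lay above the control for 10 probe sets in NIH3T3 (28.9% of all tested) and below it for 14 (38.3%). In B16F10 it was 10 above (37%) and 7 below (32.2%). Among the NIH3T3 PGC7 cultures the uncloned population had the lowest Il33, Ccl8 and Ccl9 and the highest Il34, Lif, Il15, Cxcl5 and Vcam1. This order was not tested. The difference between the changes of the lines was called for 9 of 33 probe sets, 3 higher and 6 lower in NIH3T3, for 8 genes, where 6.88% of all tested were called, 3.08% higher and 3.8% lower. These were Il33, Ccl8 and Lif, higher, and Ccl9 (1448898_at), Cxcl5, Il15, Il18 and Vcam1, lower. The number of probe sets was 4 without NIH3T3 clone 1, 5 without NIH3T3 clone 2, and 4 without B16F10 clone 1 or 3. For 6 of the 8 genes, all but Il18 and Il15, the signals in B16F10 stayed under the median on every array.

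The levels of these RNAs were also compared between the lines, where the line and any batch of arrays cannot be told apart. The scaling multiplied the NIH3T3 arrays by 2.65 to 3.49, low signals included, and left the B16F10 arrays nearly unchanged. Averaging PGC7 and control groups, 23 of the 33 probe sets were higher in NIH3T3 than in B16F10 and 5 lower, where 71.5% of all tested differed (42% higher and 29.6% lower). With no filter it was 38 of 94 (40.4%), against 43.2% of all, so that the members' share was close to that of all probe sets. Higher in NIH3T3 were 17 genes. Among them were Ccl2 (8.11 ± 0.25, adjusted p = 4.91e-08), Ccl7 (5.07 ± 0.32), Il11 (4.26 ± 0.30), Il18 (2.75 ± 0.15) and Ccl27a (1.19 ± 0.23), all as log2 differences. For Il33 the average joins a control with a signal of 6.13 and PGC7 cultures of 3347 and more. Higher in B16F10 were Il17b (-4.85 ± 0.25, adjusted p = 7e-07), Cxcl10 (-4.40 ± 0.53), Ccl5 (-3.35 ± 0.29), Ccl25 with 1418777_at (-1.58 ± 0.26) and Il17d (-1.24 ± 0.37). The other Ccl25 probe set, 1458277_at, was not called (-0.32 ± 0.27, adjusted p = 0.314).

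The receptors of these ligands were followed with a list of their own. In NIH3T3, 1 of 24 tested cytokine receptor genes rose and 7 fell. By probe set, 2 of 40 were called higher and 10 lower, where 6.47% of all tested were called higher and 6.32% lower, with a median change of -0.46 over the 40, against -0.07 over all tested. Il1rap, the accessory chain shared by the receptors for interleukin 1 and Il33, rose. It had 3471, 3636 and 3965 in the uncloned population, clone 1 and clone 2, against 1341 in the NIH3T3 control (1421844_at, 1.45 ± 0.16, adjusted p = 0.000885), and 1898, 2004 and 2559, against 639.6, with 1421843_at (1.73 ± 0.31, adjusted p = 0.00918). A further probe set, 1449585_at, was not called (0.11 ± 0.28, adjusted p = 0.843). In B16F10 1421844_at had 235, 269 and 256 in clones 1 to 3, against 306 (-0.27 ± 0.16, adjusted p = 0.471). Il1rl1, the chain that binds Il33, was not analysed here.

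Of the receptor genes of the interleukin 6 family, Il6st, Lifr and Osmr were called lower in NIH3T3 and Il6ra was not called. Il6st, the gene for gp130, had 2636, 3014 and 2874 in the uncloned population, clone 1 and clone 2, against 8333 in the NIH3T3 control (1437303_at, -1.55 ± 0.13, adjusted p = 0.000358). Lifr, which pairs with gp130 to bind Lif, had 124, 85.5 and 96.5, against 283 (1454984_at, -1.41 ± 0.31, adjusted p = 0.0202), and lost its call under the spike scaling (adjusted p = 0.0726). The other Lifr probe sets did not pass the filter and did not share a direction. 1425107_a_at had 34.8, 29.4 and 26.3, against 6.77, at least 2-fold higher in all 3 cultures, and 1450207_at had 31.1, 22.8 and 30.5, against 42.0. Il6ra, the chain that binds Il6, had 140.0, 324 and 344, against 146, with 1422270_a_at (0.75 ± 0.54, adjusted p = 0.41) and a change of 0.64 ± 0.49 with 1452416_at (adjusted p = 0.435). Osmr, the oncostatin M receptor, had 629.9, 277 and 446, against 2340.1 (1418674_at, -2.43 ± 0.39, adjusted p = 0.00584). In B16F10 the changes were -0.44 ± 0.13 for Il6st, 1.10 ± 0.31 for Lifr and 1.19 ± 0.39 for Osmr, none of them called by limma (adjusted p = 0.169, 0.136 and 0.193), and the difference between the lines was called for each. Il17rc, a chain of the interleukin 17 receptor, fell too, with 369, 459 and 477 in the NIH3T3 PGC7 cultures, against 1703 in the control (-1.96 ± 0.22, adjusted p = 0.0012). Il17rd, a related chain, had 73.7, 25.7 and 40.8, against 611 (1429893_at, -3.57 ± 0.58, limma adjusted p = 0.00597). With 1452471_at Il17rd had 79.9, 4.45 and 69.3, against 117, and was not called (-1.48 ± 1.06, limma adjusted p = 0.404). The other 2 genes that fell were Il17ra and Il10rb. Il17ra was called with 1420905_at (limma adjusted p = 0.024) and not with 1420904_at (adjusted p = 0.112). In B16F10 0 of the 24 were called by limma, and of 5 tested chemokine receptor genes 0 were called in either line.

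Among integrin chains that bind Vcam1 or Icam1, Itgb2, the leukocyte beta 2 chain, rose in both lines. It had 327, 366 and 599 in the NIH3T3 PGC7 cultures, against 15.4 in the control (4.12 ± 0.42, adjusted p = 0.000689), and 79.6, 65.0 and 94.4 in B16F10 clones 1 to 3, against 1.72 (3.03 ± 0.42, adjusted p = 0.0164). The B16F10 call was lost without B16F10 clone 1 or 3 (adjusted p = 0.0687 to 0.0718). Itgb7, a partner of alpha 4, rose in NIH3T3 (449, 728 and 475, against 96.2, 2.38 ± 0.60, adjusted p = 0.0358), and the call was lost without NIH3T3 clone 1 or 2 or B16F10 clone 1 (adjusted p = 0.0634 to 0.0836). Itga4 and Itgb1, which form the Vcam1 receptor, were not called in either line.

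Leukocyte markers were set beside these values because many of the ligands and Itgb2 are typical of leukocytes. The 9 myeloid markers summed to 912, 1080.1 and 1222 in the uncloned population, clone 1 and clone 2, against 616 in the NIH3T3 control, and to 205, 253 and 286 in B16F10 clones 1 to 3, against 187. Of these Cd14 rose in NIH3T3 (471, 520.4 and 578, against 131, adjusted p = 0.0128). Ptprc, the pan-leukocyte gene, had 74.8, 231 and 175, against 60.6 (1422124_a_at, adjusted p = 0.346). Cd68 had 150.2, 70.1 and 108, against 48.0 (adjusted p = 0.164), above the control in all 3. Csf1r had 119.9, 164 and 155, against 163 (1423593_a_at, adjusted p = 0.815), Fcer1g had 17.7, 6.92 and 65.9, against 40.5 (adjusted p = 0.635), and Lyz2, which did not pass the filter, had 35.0, 31.7 and 38.6, against 114. Adgre1, Tyrobp and Itgam had 1.12 to 60.2 over the 8 arrays and did not pass the filter. In all, 5 of the 9 had a mean signal above the median in NIH3T3 and 3 in B16F10, and the sum was higher in all 3 PGC7 cultures of each line than in its control. Cd14 made up a large part of the NIH3T3 PGC7 sums and was the 1 of 5 tested myeloid genes called there. Lyz2 was lower in all 3 NIH3T3 PGC7 cultures, so the sums do not show a rise of all myeloid markers. The 6 lymphocyte markers summed to 61.4 to 157 in NIH3T3 PGC7, against 165 in the control, and to 75.2 to 146 in B16F10 PGC7, against 49.8. The 5 endothelial, 6 epithelial and 3 mast cell markers summed to 64.0 to 181, 228 to 452 and 18.9 to 68.3 in NIH3T3 PGC7, against 141, 358 and 25.4 in the control. In B16F10 PGC7 they summed to 13.8 to 85.3, 219 to 283 and 3.76 to 10.1, against 50.7, 209.5 and 4.75. Their part in the ligand values was not tested. In bulk RNA fewer cells of a type and less RNA per cell cannot be told apart.

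Of 27 tested genes of the Toll-like receptor, interleukin 1 and NF-kB pathways 2 rose and 2 fell in NIH3T3. This was 7 of 59 probe sets (11.9%), close to the 12.8% of all tested, with a median change of -0.33. In B16F10 0 were called by limma. Rela, an NF-kB subunit, rose by a small amount (3253, 3735 and 3865 in the PGC7 cultures, against 2416, 0.58 ± 0.13, adjusted p = 0.026), and its call held in 7 of 15 alternatives and was lost without NIH3T3 clone 1 or 2 or B16F10 clone 1, 2 or 3 (adjusted p = 0.0504 to 0.0623). Nfkbib, an inhibitor gene, rose (1.14 ± 0.29, adjusted p = 0.0382), and its call was lost without NIH3T3 clone 1 or 2 or B16F10 clone 1, 2 or 3 (adjusted p = 0.0709 to 0.0802). Nfkbiz, a nuclear inhibitor family member needed for Il6 induction, fell with 3 probe sets, as in 1417483_at (186, 127 and 125, against 527, -1.81 ± 0.28, adjusted p = 0.00505). Cyld, a deubiquitinase that restrains the pathway, fell with 1429618_at (242, 390.3 and 283, against 837, -1.46 ± 0.25, adjusted p = 0.00783), a call lost when the 4 NIH3T3 arrays were fitted alone. Of 7 genes that act in the decay of cytokine mRNAs, Zfp36l1 with 1450644_at fell in NIH3T3 (3459.6, 3541 and 3373, against 7195, -1.06 ± 0.12, limma adjusted p = 0.00131). With this probe set it rose in B16F10 (4812, 4545 and 5426, against 2659, 0.88 ± 0.12, limma adjusted p = 0.0174). The other Zfp36l1 probe set, 1422528_a_at, was not called in B16F10. The B16F10 rise was lost without B16F10 clone 1 or 3 (adjusted p = 0.0656 to 0.0766) and under the spike scaling (adjusted p = 0.386). Zfp36l2 fell in NIH3T3 (1437626_at, -0.52 ± 0.11, adjusted p = 0.0209), a call lost under the spike scaling (adjusted p = 0.683) and without B16F10 clone 1 (adjusted p = 0.0504).

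Of 8 tested output genes of the same pathways, Ptx3, a secreted pattern recognition protein, changed most in NIH3T3 (147, 229.9 and 155, against 14547, -6.32 ± 0.48, adjusted p = 0.000241). Sod2 with 1454976_at fell too (-0.91 ± 0.17, limma adjusted p = 0.012), a call lost under the spike scaling (adjusted p = 0.238). No other Sod2 probe set was called in NIH3T3. The early response gene Ier3 rose (1.82 ± 0.40, limma adjusted p = 0.0216), a call lost with a constant variance prior (adjusted p = 0.0713). In B16F10 Cebpb, a transcription factor that acts on Il6 and other cytokine genes, rose (1427844_a_at, 256, 306 and 276, against 125, 1.10 ± 0.17, adjusted p = 0.0249). That call was lost under the spike scaling (adjusted p = 0.222) and without NIH3T3 clone 1 or B16F10 clone 1, 2 or 3 (adjusted p = 0.0645 to 0.0998).

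**Figure D5:**
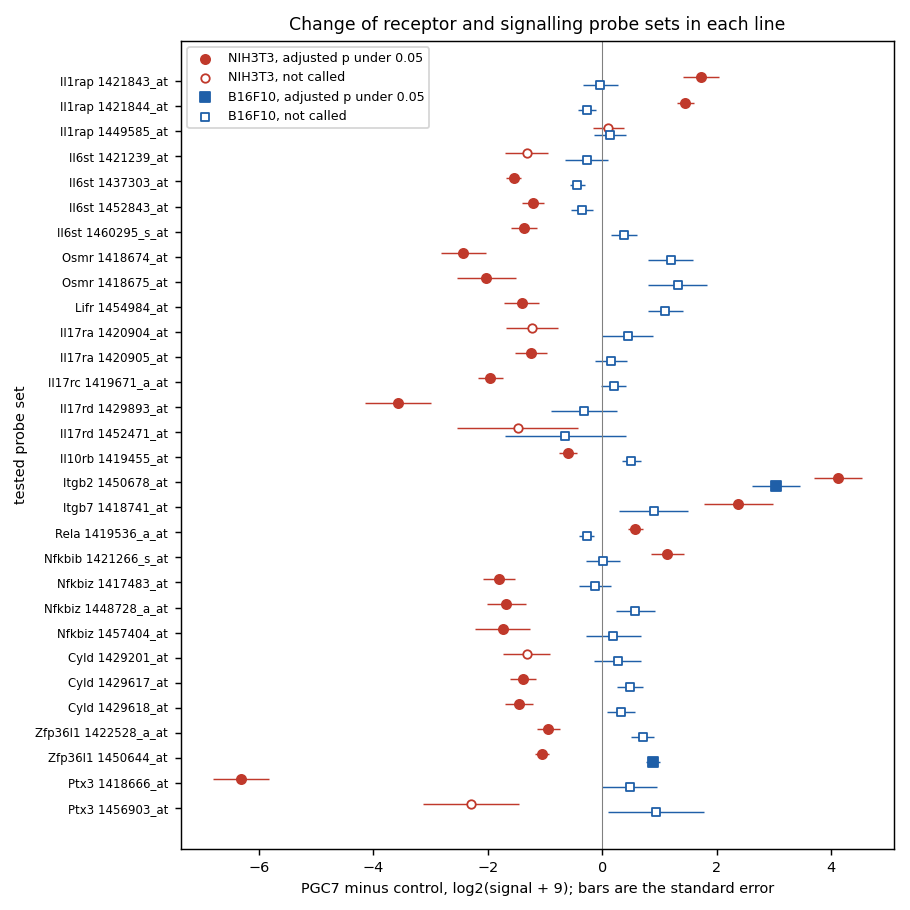
Change (PGC7 minus control, log2(signal + 9), with the standard error) of tested probe sets in NIH3T3 (red circles) and B16F10 (blue squares), filled where the adjusted p was under 0.05. The genes were picked from the receptor, NF-kB pathway, output and mRNA decay genes with a called probe set in NIH3T3. Uncalled genes of these lists are not shown. A pair of Il1rap probe sets and Itgb2 lie to the right in NIH3T3, while Il6st, Osmr, Lifr, the interleukin 17 receptor chains and Ptx3 lie to the left.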

How the data were processed

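The values used were those deposited in the series' value table, 1 intensity per probe set and array on a linear scale, made with MAS5 per the submitters' processing notes; no version or settings were found. In the deposited table each B16F10 column had a trimmed mean (2% cut at each end) of 500.003. The NIH3T3 columns had 143 to 189 and were multiplied by 2.65 to 3.49 to reach 500. The precision is bounded by the number of arrays and by the lone control of each line, whose own spread could not be measured.

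Of 45101 probe sets, 64 controls and 19801 with low signal in both lines were left out, and 25236 were fitted with limma 3.58.1 in R 4.3.3 on log2(signal + 9): 4 group means over 8 arrays, an intensity-dependent variance prior, moderated two-sided tests (8.501 degrees of freedom) and Benjamini-Hochberg adjustment. Each lone control enters with the variance seen among PGC7 arrays. Symbols came from the platform annotation. All 66 matched RefSeq, which also gave the windows (GRCm38.p6). Genes named were Il33, every member called in a line or between lines, the 10 members with the highest signal in each line, the 6 members that are neither chemokine nor interleukin, Il1rap, and up to 6 called genes of each list per line. Il6, Il7, Cx3cl1, Ccl11, Ccl12, Ccl1, Il1a, Il6ra and the leukocyte markers fall outside this rule and were chosen after their values were seen. Members and lists were chosen with earlier results of these data known. Alternatives covered scaling, pseudocount, filter, variance prior, arrays of 1 line alone and each PGC7 array left out.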

Additional observations from a re-analysis of the deposited data

Results flagged for a closer look

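The following probe sets had a change in NIH3T3 that differed from the change in B16F10 by the test of the difference itself (limma, adjusted p under 0.05), with values as the NIH3T3 change minus the B16F10 change on the log2 scale. Among the ligands and adhesion genes, the difference was 8.50 for Il33, 3.82 for Ccl8 and 2.95 for Lif (1421207_at). It was -2.81 for Ccl9 (1448898_at), -4.98 for Cxcl5, -3.31 for Il15, -1.82 for Il18, and -3.50 and -4.60 for Vcam1 (1415989_at and 1448162_at). Among receptors it was 1.76 and 1.72 for Il1rap (1421843_at and 1421844_at), -1.11 for Il6st, -2.51 for Lifr, -3.62 for Osmr and -2.15 for Il17rc. Among signalling and output genes it was 0.85 for Rela, -1.68 for Nfkbiz, -1.78 for Cyld, -1.94 for Zfp36l1, -1.66 for Cebpb and -6.79 for Ptx3. No group had the 4 arrays needed to look for a single array far from the others.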

How the results depend on the processing

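No paired analysis was possible because each line has 1 control, so the groups compared share fewer than 2 replicate numbers. Of the 44 called values of named genes, 0 changed direction in any alternative run. Over all named values and alternatives, 1113 kept direction and side of the threshold, 124 lost a call, 8 gained one and 28 reversed. Fitting the 4 NIH3T3 arrays alone ended the NIH3T3 calls of Ccl9 (1417936_at), Vcam1 (1451314_a_at), Lifr, Sod2, Zfp36l2, Cyld, Nfkbib and Rela. A constant variance prior ended those of Ccl2, Il34, Vcam1 (1451314_a_at), Itgb7, Ier3, Nfkbib, Rela and Zfp36l2. It also ended the B16F10 calls of Il18, Itgb2, Zfp36l1 and Cebpb. Leaving out 1 PGC7 array gave 9 to 13 called member probe sets in NIH3T3, 0 to 2 in B16F10, 4 to 12 for the difference between lines and 27 to 31 for the lines' levels. Changes of at least 2-fold numbered 15 to 16 in NIH3T3 and 2 to 5 in B16F10, alternatives chosen after seeing the data. The NIH3T3 count was 6 with a pseudocount of 1 and 8 with the filter over all 8 arrays. The B16F10 count was 0 under the spike scaling and the constant prior, 2 with a pseudocount of 32 and 4 with its own arrays alone, where 13.1% of all probe sets were called. The difference between lines had 4 with a pseudocount of 1 and 5 with no filter, and the levels 16 with the filter over all arrays. Changes of at least 2-fold in NIH3T3 numbered 25 with no filter and 9 with the filter over all arrays.

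The 28 reversals were of uncalled values that stayed uncalled. Under the poly-A spike scaling they were Ccl7 (0.040), Cxcl1 1441855_x_at (0.16), Cxcl10 (0.086) and Il18 (0.0077) in NIH3T3 and Ccl28 (-0.26), Cxcl1 1419209_at (-0.36), Il11 (-0.0019), Il33 (-0.028), Vcam1 1448162_at (-0.048) and Il1rap 1449585_at (-0.43) in B16F10. Under quantile normalization they were Cxcl1 1441855_x_at (0.0098) and Cxcl10 (0.0081) in NIH3T3 and Vcam1 1448162_at (-0.019) in B16F10. With the scaling as deposited it was Il1rap 1449585_at (-0.013) in NIH3T3. With a pseudocount of 1 they were Cxcl1 1419209_at (-0.35) and Vcam1 1448162_at (-0.0055) in B16F10. With 1 PGC7 array left out, reversing values in NIH3T3 ran over these ranges: Cxcl1 1441855_x_at -0.29 to 0.0086 and Cxcl10 -0.81 to 0.40. With 1 PGC7 array left out, reversing values in B16F10 ran over these ranges: Ccl8 -0.33 to 0.35, Cxcl1 1419209_at -0.38 to 0.66, Cxcl5 -0.054 to 0.011, Il1rap 1421843_at -0.18 to 0.15, Vcam1 1415989_at -0.36 to 0.39, Vcam1 1448162_at -0.036 to 0.052 and Vcam1 1451314_a_at -0.30 to 0.12. The cause was not tested.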
